A study of Mus musculus with 41 samples.

Results

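In resting LSD1n WT cortical neurons, 2315 of the 11459 H3K36me3 regions on chromosomes 1 to 19 also carried H4K20me1, a share of 20.2% (19.5 to 20.9). A region was counted as doubly marked when it overlapped a region of the H4K20me1 list of the same genotype and time by at least 1 bp. The other 9144 H3K36me3 regions overlapped no H4K20me1 region and are called H3K36me3 regions without H4K20me1. The regions were thus chosen by the positions called in these 2 lists, whose values are given as a description. Ranges in brackets are 95% intervals (exact Clopper-Pearson for a share, Newcombe for a difference of 2 shares), and they cover counting error only.

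The series used mouse primary cortical neurons kept 10 days in vitro, to locate LSD1 and to follow histone marks when LSD1n, the neuronal splice form of the demethylase LSD1, is deleted. Chromatin immunoprecipitation with sequencing gave 27 lists of called regions on build mm9. H3K36me3, H4K20me1 and RNA polymerase II (Pol II) were each profiled in LSD1n WT and LSD1n KO neurons at 0 h and 1 h in 55 mM KCl, a bath that depolarizes neurons. H3K4me1 was profiled in the same 4 groups and H3K4me2 in LSD1n WT at 0 h and 1 h. LSD1 was profiled in wild type neurons at 0 h and 1 h, in LSD1n WT at 0 h and in an LSD1n KO library whose label gives no time. A Flag antibody was used at both times on neurons labelled R26/LSD1n and R26/LSD1c. The label does not say what drives either Flag form. Every group but 1 holds 1 library, and no difference between groups was tested. The exception is H4K20me1 in WT at 1 h, with 2 libraries, and no label says that they came from separate cultures.

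H3K36me3 is laid down by the methyltransferase SETD2, which travels with elongating Pol II, and it marks the bodies of transcribed genes, more strongly towards their ends. H4K20me1 is laid down by KMT5A (SET8) and also spreads over the bodies of many transcribed genes, often starting close to the promoter. Removal of methyl groups from H4K20 has been proposed as a function of LSD1n. Chromatin here came from many cells, so both marks on the same nucleosomes and the marks in different cells of the culture cannot be told apart.

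The libraries of these 3 targets held 12572399 to 27586111 tags. Both H3K36me3 KO libraries were the shallowest of their mark, with 0.834% of tags in regions at 0 h and 0.644% at 1 h, against 1.99% and 3.24% in WT. The 2 H4K20me1 libraries of WT at 1 h stood far apart: the first had 28248 regions on chromosomes 1 to 19 and the second 2769. The second shares its title prefix with the KO library at 1 h, and the WT and KO libraries at 0 h share another, so for H4K20me1 an effect of time and one of the prefix cannot be told apart. Inside each Pol II list the header names the other genotype than the sample label does, and groups follow the label. Among the doubly marked regions 56 (2.42%) overlapped peaks of all 8 antibody targets, as did 7 (0.0766%) of the regions without H4K20me1. H4K20me1 is among the 8 targets and every doubly marked region has it by the rule, so these shares are not a like comparison. Without an mm9 annotation or genome, no gene or sequence is given, and the labelled cell type could not be checked against marker genes.

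Doubly marked regions were wider than the other H3K36me3 regions. Their median width was 655 bp (501 to 73305), against 501 bp (501 to 6159), and 501 bp is the shortest width in the list. That shortest width was found in 42.1% of the doubly marked regions and in 62.7% of the others, and 13.5% against 2.79% were wider than 2 kb. The doubly marked regions covered 2.67 Mb, of which 70.4% lay inside H4K20me1. By chromosome, their share of H3K36me3 regions ran from 15.7% (12.7 to 19.2) on chromosome 6 to 25.9% (22.0 to 30.1) on chromosome 17. At the limit of the rule, chr7:137893747-137894247 overlapped H4K20me1 by 1 bp, and chr1:91488818-91489318 and chr1:182794761-182795261 by 3 bp each. Just outside it, chr11:46102859-46103495 touched an H4K20me1 region without overlap, and chr10:75170102-75170602 and chr17:33956285-33956785 lay 1 bp away.

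The doubly marked regions lay in 1952 of the 25235 H4K20me1 regions, or 7.74%. They were found in wide H4K20me1 regions more often than in narrow ones: 31.9% (28.5 to 35.6) of the 695 regions of 10 kb or more held at least 1, against 4.12% (3.80 to 4.45) of the 14761 regions under 1 kb. A wide region has more length to overlap. H4K20me1 regions with H3K36me3 had a median width of 2260 bp and those without it 723 bp. Most of them, 1691, held a single H3K36me3 region, and 261 held 2 or more, so doubly marked regions are not independent of each other.

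Roughly equal numbers of doubly marked regions lay wholly inside H4K20me1 and across an edge. Of the 2315, 1180 (51.0%, 48.9 to 53.0) were wholly inside, 1135 (49.0%) crossed an edge, and 1695 (73.2%) had at least 50% of their length inside. The relation turned with the width of the H4K20me1 region: H3K36me3 regions were wholly inside in 3.76% of overlaps with H4K20me1 regions under 1 kb, 56.7% at 2 to 5 kb and 91.3% at 10 kb or more. In 161 cases the H3K36me3 region was the wider one and contained a whole H4K20me1 region. Where the midpoints lay inside also varied with that width. When each side was divided into 5 equal parts from the edge to the centre, the outermost parts held 115 of the 428 midpoints (26.9%) in H4K20me1 regions of 10 kb or more, and the innermost 67 (15.7%). At 5 to 10 kb the outermost and innermost parts held 20.7% and 19.8%. In narrower regions the innermost held more, with 22.9% outermost and 29.2% innermost under 1 kb, 15.5% and 28.0% at 1 to 2 kb, and 16.8% and 20.4% at 2 to 5 kb. These shares count only midpoints inside the H4K20me1 region. Under 1 kb those were 240 of 612 (39.2%), so most midpoints lay outside. At 1 to 2 kb 66.0% lay inside, and at 2 to 5 kb 80.9%.

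H3K36me3 lay somewhat more often at the end of the H4K20me1 region that was away from Pol II. This layout was examined after the values had been looked at, in the 495 H4K20me1 regions of 5 kb or more with H3K36me3. In 263 of them a WT 0 h Pol II site lay within 1 kb of one edge only, which gives the region a direction. From the Pol II edge to the far edge, the 5 equal parts held 80, 74, 78, 79 and 109 of the 420 midpoints inside. The part at the far edge thus held 26% (21.8 to 30.4), and the 4 others 17.6% to 19%. A further 24 midpoints lay past the far edge and 3 before the Pol II edge. With those included, the mean midpoint lay past the centre, away from Pol II, for 162 of the 263 H4K20me1 regions (61.6%, 55.4 to 67.5). The share of length under H3K36me3 was 13.0% at the Pol II edge and 16.7% at the far edge. Using the Pol II list labelled KO, 2 kb around the edge, H4K20me1 regions merged within 5 kb, or H3K4me2 in place of Pol II gave 60.1%, 60.4%, 64.9% and 59.7% for means past the centre.

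**Figure D1:**
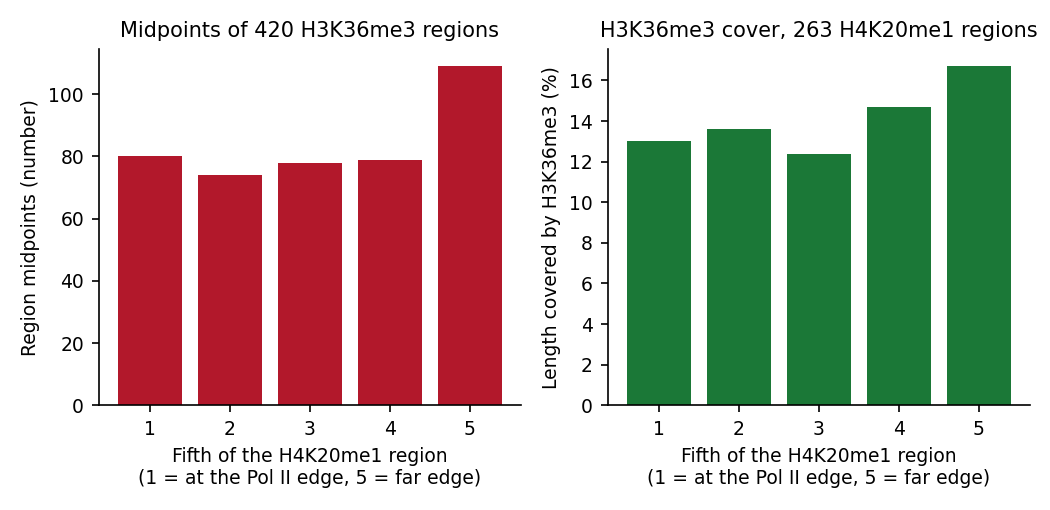
The left panel plots the number of H3K36me3 midpoints and the right panel the percent of length covered by H3K36me3 in 5 equal parts of 263 H4K20me1 regions of 5 kb or more, with the Pol II edge at left. The part at the far edge holds 109 of 420 midpoints and has the highest cover, 16.7%, while the other 4 parts lie between 74 and 80 midpoints and between 12.4% and 14.7%.

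Single H4K20me1 regions show how cover by both marks varied between the lists. The region with most doubly marked regions was chr14:67424900-67486512, 61.6 kb long, with 16 of them over 13.6 kb. In the other H3K36me3 lists 7 of these 16 were called in KO at 0 h, 10 in WT at 1 h and 6 in KO at 1 h, while H4K20me1 covered 100%, 96.7%, 51.9% and 91.0% of the whole region in KO at 0 h, the 2 WT libraries at 1 h and KO at 1 h. At chr13:58909127-58949171, 40.0 kb long, H3K36me3 covered 47.9% in WT at 0 h, 2.50% in KO at 0 h, 48.9% in WT at 1 h and 26% in KO at 1 h. H4K20me1 covered 99.8% of it in KO at 0 h, 98.1% and 5.40% in WT at 1 h and 36.6% in KO at 1 h. In that region H3K36me3 was thus at its lowest in KO at rest. H4K20me1 covered nearly all of it there, and also in the first WT library at 1 h, where H3K36me3 covered 48.9%. At chr4:48057795-48099329, H3K36me3 covered 34.5%, 6.03%, 53.6% and 45.9% in the same groups, again lowest in KO at rest. Of the 5 H4K20me1 regions with most doubly marked regions, 4 had their lowest H3K36me3 cover in KO at 0 h, and chr14:67424900-67486512 had it in KO at 1 h (9.05%). All 5 were chosen by their H3K36me3 regions in WT at 0 h. The H3K36me3 lists hold 9.13 Mb in WT at 0 h, 2.53 Mb in KO at 0 h and 2.21 Mb in KO at 1 h. The part of list length in these values was not tested.

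H3K36me3 was called again at doubly marked regions more often than at the others in every other H3K36me3 list. In WT at 1 h, 1281 of the 2315 (55.3%, 53.3 to 57.4) were called, against 3017 of the 9144 others (33.0%, 32.0 to 34.0) and 37.5% of all H3K36me3 regions. In KO at 0 h the shares were 24.5% (22.8 to 26.3) and 8.29% (7.73 to 8.87), with 11.6% of all. In KO at 1 h they were 23.4% (21.7 to 25.1) and 6.42% (5.93 to 6.94), with 9.84% of all. The differences were 22.3 (20.1 to 24.6), 16.2 (14.4 to 18.1) and 16.9 (15.2 to 18.8) percentage points. Most doubly marked regions were therefore missing from both KO lists, as were most of the others. The KO libraries were also the shallower ones, and the part of depth was not tested. H3K36me3 appeared in no other list at 899 doubly marked regions (38.8%) and at 62.2% of the others, with 57.5% of all, and in all 3 other lists at 296 (12.8%) and 1.62%, with 3.87% of all.

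Width moved with these shares. Among regions of 501 bp, 31.0% (28.1 to 34.0) of the doubly marked and 22.9% (21.8 to 24.0) of the others were called in WT at 1 h, and 9.03% (7.31 to 11.0) against 4.06% (3.57 to 4.61) in KO at 0 h. Among regions of 1449 bp or more the shares were 90.7% (88.0 to 93.0) against 76.8% (73.4 to 80.0) and 53.9% (49.6 to 58.2) against 30.0% (26.5 to 33.7). With the others weighted to the widths of the doubly marked regions, over 501 bp and 4 wider classes, the differences were 11.8 points in WT at 1 h, 11.4 in KO at 0 h and 12.6 in KO at 1 h. Weighted by order in the list, which follows width, they were 10.4, 10.4 and 11.7. With an overlap of at least 50% of the region required throughout, they were 17.8, 7.13 and 7.40. The part of width in the remaining difference was not tested beyond these classes.

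**Figure D2:**
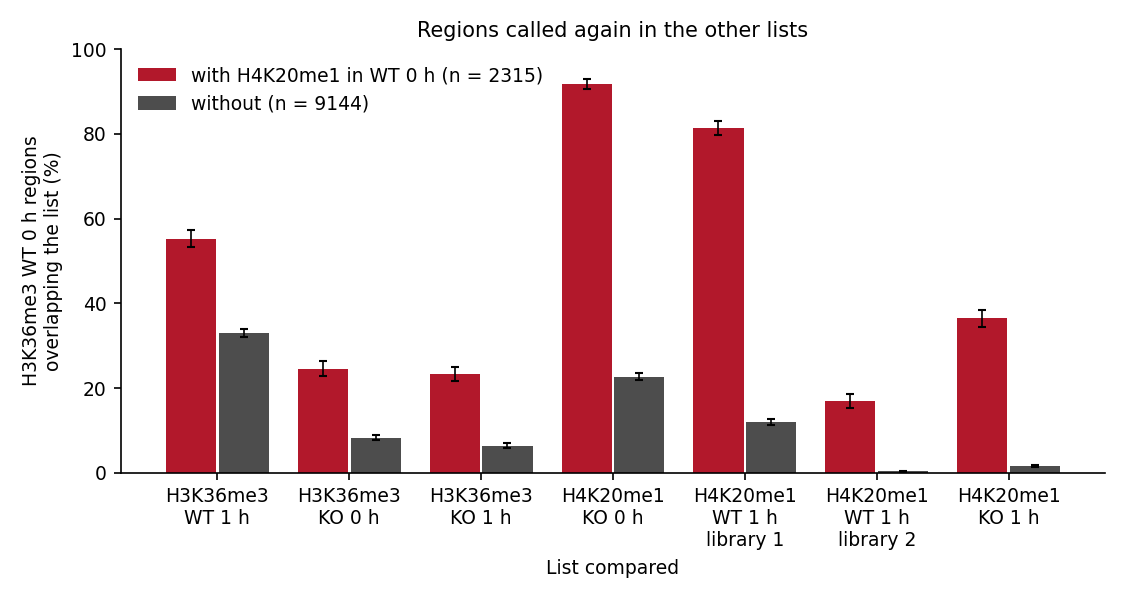
Bars give the percent of H3K36me3 regions of WT at 0 h that overlap each other list, for the 2315 regions with H4K20me1 (red) and the 9144 without (grey), with 95% Clopper-Pearson intervals as error bars. The red bar is the higher in all 7 lists, and the 2 H4K20me1 libraries of WT at 1 h stand at 81.4% and 16.9%. The sets were split by H4K20me1 in WT at 0 h, so the order in the H4K20me1 lists partly follows from that choice.

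Most doubly marked regions were called again with H4K20me1 in KO at rest. In KO at 0 h the mark was called at 2126 doubly marked regions (91.8%, 90.6 to 92.9), against 22.7% (21.8 to 23.5) of the others and 36.6% of all H3K36me3 regions. The sets were split by this mark in WT at 0 h. A higher share at doubly marked regions, here and in the H4K20me1 lists at 1 h, therefore partly follows from that choice. With each H4K20me1 list limited to its widest regions, as many as in the shortest list, the first share was 55.2%. The mark also covered more of their length, 85.1% in KO at 0 h against 70.4% in WT at 0 h. Of the 792 kb of doubly marked regions that lay outside H4K20me1 in WT at 0 h, 66.7% was covered in KO at 0 h. This length had no cover in WT at 0 h, so its value could only rise. In WT at 1 h the first library covered 42.1% of it and the second 3.25%, and KO at 1 h covered 8.50%. The KO list of H4K20me1 at 0 h is itself longer, 92.9 Mb against 49.6 Mb in WT at 0 h, and its part in the KO values was not tested.

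At 1 h the H4K20me1 values were spread over a wide range. The first WT library had the mark at 81.4% (79.8 to 83.0) of doubly marked regions and the second at 16.9% (15.4 to 18.5), a mean of 49.2% ± 45.6 (SD, n = 2). The background shares over all H3K36me3 regions were 25.9% and 3.73%, and the others had 11.9% and 0.394%. KO at 1 h had 36.5% (34.5 to 38.5), with 8.58% of all and 1.52% of the others. KO at 1 h thus lay between the 2 WT libraries. It was above the second WT library, which has the same title prefix and a list of 2.92 Mb against 12.0 Mb in KO, and below the first, which has another prefix. The difference between KO and WT at 1 h was not tested.

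Taking both marks at once, the usual state of a doubly marked region in KO at 0 h was H4K20me1 alone. That state held 1584 regions (68.4%, 66.5 to 70.3), against 29.6% of all H3K36me3 regions. Both marks were called at 542 (23.4%, with 7.06% of all), H3K36me3 alone at 25 (1.08%, with 4.50% of all) and neither at 164 (7.08%, with 58.9% of all). In WT at 1 h, with the first H4K20me1 library, both marks were called at 47.0% of doubly marked regions (13.9% of all) and H4K20me1 alone at 34.5% (12.0% of all). With the second library, both marks stood at 12.7% (2.76% of all) and H3K36me3 alone at 42.6% (34.7% of all). In KO at 1 h neither mark was called at 53.8% of doubly marked regions, 92.4% of the others and 84.6% of all, and both were called at 13.6% (3.03% of all). Regions with both marks in KO at 0 h were wider than those with H4K20me1 alone, with medians of 1559 and 625 bp.

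**Figure D3:**
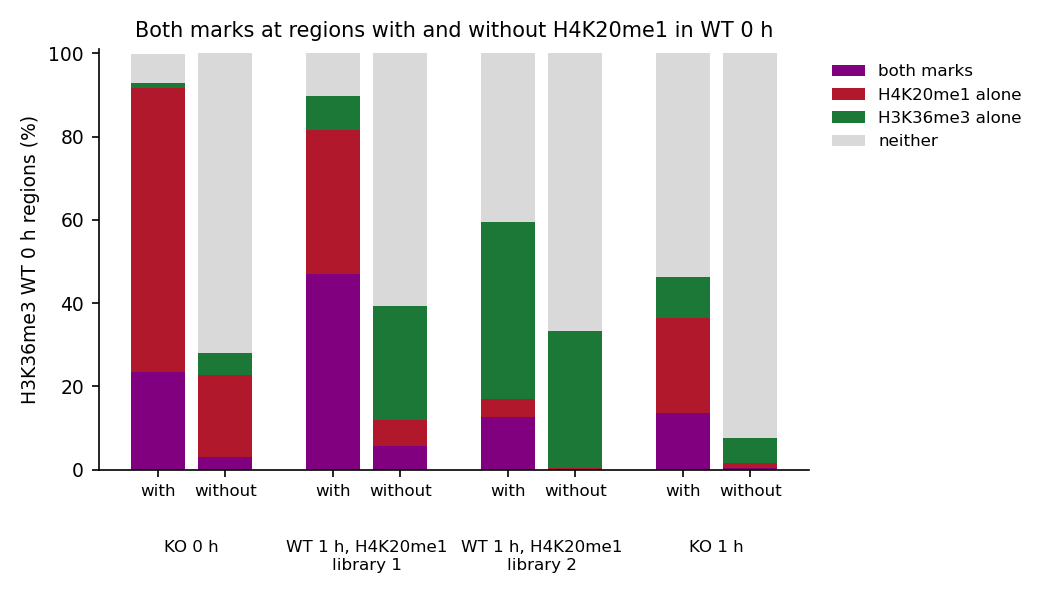
Stacked bars give the percent of H3K36me3 regions called with both marks, H4K20me1 alone, H3K36me3 alone or neither in each group, for regions with and without H4K20me1 in WT at 0 h. In KO at 0 h the red part (H4K20me1 alone) takes 68.4% of the doubly marked regions, and in KO at 1 h the grey part (neither) takes 53.8%.

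The marks tended to be called at the same doubly marked regions. In KO at 0 h, H3K36me3 was called at 25.5% (23.7 to 27.4) of those with H4K20me1 there and 13.2% (8.75 to 18.9) of those without. In KO at 1 h the shares were 37.3% (34.0 to 40.7) and 15.4% (13.6 to 17.3). At regions of 501 bp the difference was within the counting error in KO at 0 h, 9.11% (7.28 to 11.2) against 8.41% (3.92 to 15.4). At wider regions it was 36.8% (34.1 to 39.5) against 19.5% (11.6 to 29.7).

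Both marks were called in every list of both marks at 133 doubly marked regions (5.75%, with 1.18% of all H3K36me3 regions), or 88 once regions with all 8 targets were left out. The widest is chr11:3026137-3099441, 73.3 kb, covered to at least 96.4% by each mark in every other list. H3K4me1 and H3K4me2 in WT at 0 h covered 97.9% and 97.7% of it, so it was called with each of these histone marks. At chr19:44369223-44380737, 11.5 kb and wholly inside H4K20me1, H3K36me3 covered 73.2% in KO at 0 h, 91.6% in WT at 1 h and 39.9% in KO at 1 h. H4K20me1 covered 93.5% or more of it in each of the 4 other lists. At chr1:90155028-90166704, 11.7 kb, only 12.9% lay in H4K20me1 in WT at 0 h, and H3K36me3 covered 88.4%, 92.7% and 89.4% in the 3 other lists.

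Other wide regions illustrate the separate states in KO at 0 h. The widest with H4K20me1 alone was chr7:86666881-86673211, 6.33 kb. H3K36me3 covered none of it in KO at 0 h, 73.9% in WT at 1 h and 23.9% in KO at 1 h, while H4K20me1 covered 100% in KO at 0 h. At chr12:101440394-101446366, 5.97 kb, H3K36me3 likewise covered none in KO at 0 h, 73.5% in WT at 1 h and 33.9% in KO at 1 h. H4K20me1 covered 100%, 100%, 46.4% and 97.5% of it in KO at 0 h, WT at 1 h (2 libraries) and KO at 1 h. The rarest state, H3K36me3 alone, included chr2:27351935-27358343, 6.41 kb, with H3K36me3 over 97.7% and H4K20me1 over none of it in KO at 0 h. H4K20me1 covered 91.7%, 96.0% and 65.7% of that region in the 3 lists at 1 h. Neither mark was called in KO at 0 h at chr11:120206671-120209491, 2.82 kb, which lay 0.147 kb from a WT 0 h Pol II site.

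Doubly marked regions lay closer to Pol II than the other H3K36me3 regions. The Pol II lists were not used to choose them. The median distance to the nearest WT 0 h Pol II site was 6.66 kb (quartiles 2.12 and 17.8) against 18.1 kb (7.38 and 42.0). A site lay within 10 kb of 1391 doubly marked regions (60.1%, 58.1 to 62.1), 32.8% (31.8 to 33.7) of the others and 38.3% of all, a difference of 27.3 points (25.1 to 29.5). Within 1 kb the shares were 12.7% and 2.93%, and within 50 kb 92.5% and 79.4%. Few regions overlapped a site directly, 4.23% against 0.962% (1.62% of all), and 2.12% of the doubly marked ones once those with all 8 targets were left out. Pol II is among the 8 targets, so leaving those regions out takes Pol II sites away by definition. At regions of exactly 501 bp the shares within 10 kb were 53.5% (50.3 to 56.7) and 29.4% (28.2 to 30.6).

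**Figure D4:**
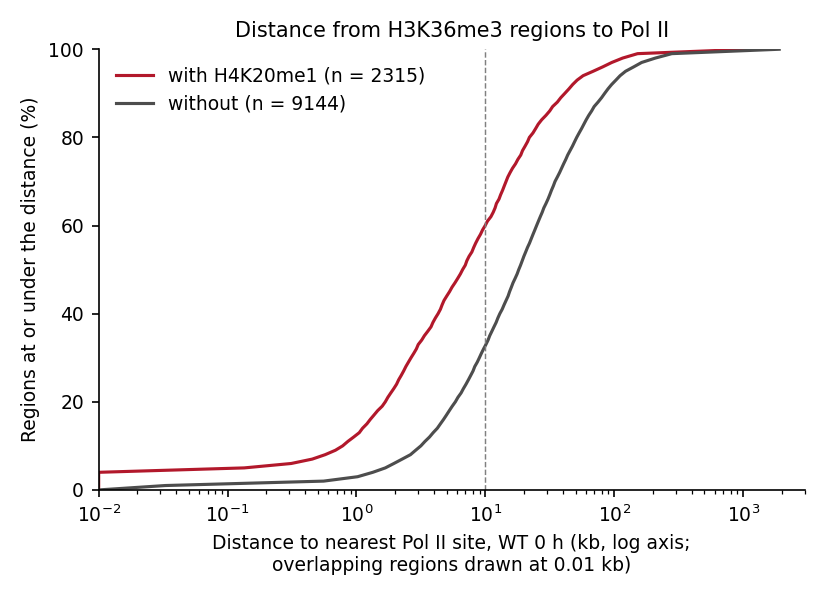
Lines give the percent of H3K36me3 regions at or under each distance to the nearest Pol II site of WT at 0 h, on a log axis in kb, with H4K20me1 (red) and without (grey); the dashed line marks 10 kb. The red line lies above the grey one, at 60.1% against 32.8% at 10 kb.

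The same order held in the 3 other Pol II lists. Direct overlap was 4.71% of the doubly marked regions for the list labelled KO at 0 h (1.66% of all), 4.19% for WT at 1 h (1.44% of all) and 4.15% for KO at 1 h (1.66% of all). The shares within 10 kb were 59.8% against 34.3% for the list labelled KO at 0 h (39.5% of all), 59.2% against 31.6% for WT at 1 h (37.2% of all) and 59.4% against 34.9% for KO at 1 h (39.9% of all). For the doubly marked regions the 4 shares therefore spanned 59.2% to 60.1%. Of the 3 widest that overlapped a WT 0 h Pol II site, chr7:86649831-86655169, 5.34 kb and wholly inside H4K20me1, did so in all 4 lists. The farthest from any site was chr17:39979198-39985198, 6.00 kb, at 1086 kb in every Pol II list. H3K36me3 covered at least 81.7% and H4K20me1 at least 92.0% of it in each other list. H3K4me1 and H3K4me2 in WT at 0 h covered 80.9% and 89.5% of it, so this region too was called with each of these histone marks.

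Distance to Pol II differed among the doubly marked regions. Those whose H3K36me3 was called in KO at 0 h had a median distance of 3.13 kb, with 74.4% (70.6 to 78.0) within 10 kb, and those not called 8.03 kb, with 55.4% (53.1 to 57.8). The called ones were also wider, with a median of 1495 bp against 501 bp. By the width of the H4K20me1 region around them, the share within 10 kb was 48.1% under 1 kb, 59.5% at 1 to 2 kb, 71.3% at 2 to 5 kb, 73.9% at 5 to 10 kb and 48.6% at 10 kb or more. Doubly marked regions in the widest H4K20me1 regions were thus about as far from Pol II as those in the narrowest, with medians of 10.3 and 11.0 kb. This distance is taken from the H3K36me3 region, which can lie deep inside a wide H4K20me1 region. Taken from the H4K20me1 region itself, where it held H3K36me3, the median was 0.753 kb at 5 kb or more and 10.9 kb under 1 kb. Doubly marked regions in the widest class also had the lowest share called with H3K36me3 in KO at 0 h, 16.9% (13.5 to 20.7), against 24.8% to 28.0% in the 4 narrower classes. At H3K36me3 regions wider than 501 bp these values were 24.4% (19.2 to 30.2) against 34.4% to 40.6%. At those of 501 bp the widest class was not the lowest, with 7.22% (4.0 to 11.8) against 5.17% to 12.0%. H4K20me1 itself was called in KO at 0 h at 99.8% of the doubly marked regions in H4K20me1 regions of 10 kb or more and at 75.7% of those under 1 kb.

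The rule was also applied to the lists of each other group. In KO at 0 h, 1538 of 3612 H3K36me3 regions overlapped H4K20me1 (42.6%, 41.0 to 44.2), and 36.4% of these 1538 lay at a doubly marked region of WT at 0 h. The share was 24.6% and 3.05% in WT at 1 h with the 2 H4K20me1 libraries, and 15.7% in KO at 1 h. These shares followed the length of the H4K20me1 list, from 2.92 Mb in the second WT library at 1 h to 92.9 Mb in KO at 0 h. In each group the regions with both marks lay nearer to Pol II of that group. A site was within 10 kb at 60.7% (58.2 to 63.2) against 36.7% (34.7 to 38.9) in KO at 0 h and 77.9% (74.0 to 81.5) against 41.9% (40.1 to 43.9) in KO at 1 h. In WT at 1 h the values were 52.3% (50.8 to 53.8) against 30.3% (29.5 to 31.1) with the first library and 78.2% (74.4 to 81.6) against 34.4% (33.7 to 35.1) with the second.

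H3K36me3 regions close to H4K20me1 but outside it lay between the doubly marked and the distant ones. These classes of distance were chosen after values had been looked at. The share with Pol II within 10 kb was 60.1% on overlap, 48.0% (44.9 to 51.1) at under 1 kb from H4K20me1, 47.4% at 1 to 5 kb, 31.4% at 5 to 20 kb, 20.1% at 20 to 100 kb and 18.9% (16.1 to 22.0) at 100 kb or more. For H3K36me3 in WT at 1 h the shares fell in the same order from 55.3% and 42.8% to 23.4%. H4K20me1 in KO at 0 h was called at 68.3% (65.3 to 71.1) of H3K36me3 regions under 1 kb away and at 3.81% (2.52 to 5.49) of those 100 kb or more away. For H3K36me3 in KO at 0 h the step was at the overlap, 24.5% (22.8 to 26.3) against 12.4% (10.4 to 14.6) at under 1 kb, and the farther classes ran from 6.33% to 10.6%. The share of regions with the shortest width rose along the same classes from 42.1% to 70.5%.

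**Figure D5:**
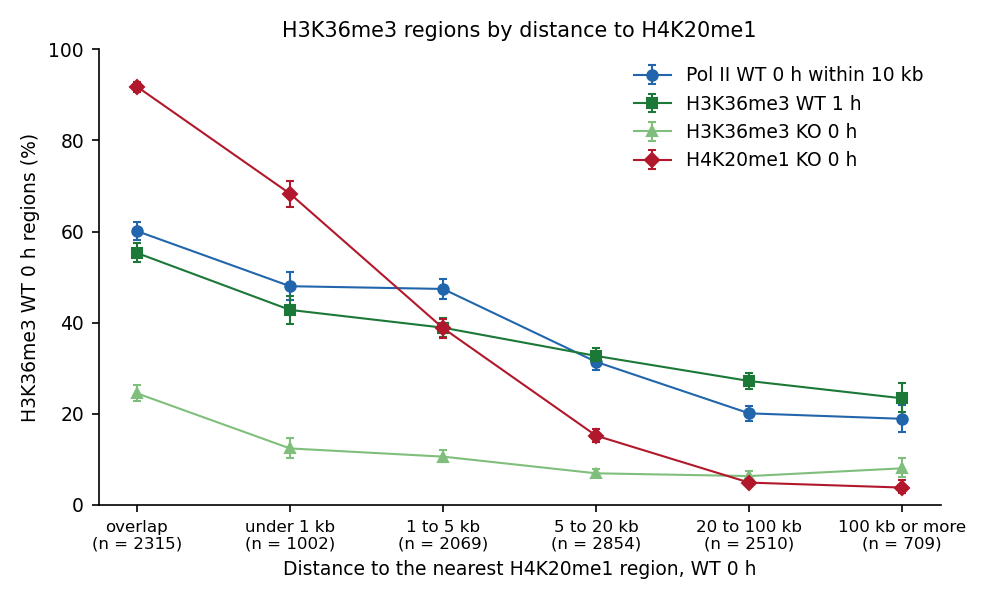
Points give the percent of H3K36me3 regions of WT at 0 h with each property, by distance to the nearest H4K20me1 region of WT at 0 h, with 95% Clopper-Pearson intervals. Pol II within 10 kb goes from 60.1% on overlap to 18.9% at 100 kb or more, and H4K20me1 in KO at 0 h from 91.8% to 3.81%.

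Seen from the H4K20me1 side, regions with H3K36me3 were called again more often at 1 h than regions without it. Among H4K20me1 regions of 5 kb or more, 63.6% (59.2 to 67.9) of the 495 with H3K36me3 and 32.4% (30.1 to 34.8) of the 1547 without it were called in the second WT library at 1 h. In KO at 1 h the shares were 90.3% (87.3 to 92.8) and 76.8% (74.6 to 78.9). Over H4K20me1 regions of all widths, 5.58% and 17.4% were called in these 2 lists. Those shares include narrow regions, which were called less often. Under 1 kb they were 10.2% and 14.1% with H3K36me3, and 0.643% and 4.18% without it. In the first WT library at 1 h (59.2% of all) every region of 5 kb or more was called in both sets, and in KO at 0 h (77.5% of all) 99.8% and 100%. Median widths in this class were 9045 and 7669 bp, and their part in the differences was not tested. Where called in KO at 0 h, these regions were wider there by a median of 0.57 on the log2 scale with H3K36me3 and 0.94 without it.

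In H4K20me1 regions with H3K36me3 at rest, H3K36me3 covered a similar share of length at 1 h in KCl. Part of the cover at 1 h lay outside the H3K36me3 regions called at rest. The cover was 20.2% in WT at 0 h and 21.3% in WT at 1 h, while the whole list grew from 9.13 to 15.1 Mb. The regions were chosen by H3K36me3 in WT at 0 h, which raises the cover at 0 h and not that at 1 h. The comparison of the 2 times, here and by width, is therefore a description only. By width of the H4K20me1 region it went from 58.5% to 33.8% under 1 kb, from 32.2% to 29.8% at 1 to 5 kb and from 13.9% to 17.6% at 5 kb or more. Outside the H3K36me3 regions of WT at 0 h, the WT 1 h list covered 13.3% of the remaining 7.41 Mb, against 1.83% of the 40.3 Mb in H4K20me1 regions without H3K36me3. This length had no cover at rest, so its value could only rise. The 7.41 Mb include length next to the H3K36me3 regions of WT at 0 h, so widened regions and separate ones were not told apart. By width of the H4K20me1 region the values were 23.7% against 2.66% under 1 kb, 19.7% against 1.89% at 1 to 5 kb and 11.2% against 1.31% at 5 kb or more. In the KO lists the cover was lower, 2.46% against 0.253% at 0 h and 3.03% against 0.262% at 1 h.

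Marks of promoters and enhancers were found at doubly marked regions more often than at the others. H3K4me1, a mark of enhancers and of the flanks of promoters, was called in WT at 0 h at 31.0% (29.1 to 32.9) of them, 6.07% (5.59 to 6.58) of the others and 11.1% of all H3K36me3 regions. At the shortest width the shares were 21.7% (19.1 to 24.4) and 4.50% (3.98 to 5.07). H3K4me2, found at promoters and enhancers, was called at 21.0% (19.4 to 22.7), 2.64% (2.32 to 2.98) and 6.34%. H3K4me2 in WT at 1 h was called at 19.5% of the doubly marked regions and 5.44% of all. H3K4me1 was called at 37.8% in WT at 1 h (13.9% of all), 29.8% in KO at 0 h (10.2% of all) and 46.8% in KO at 1 h (17.5% of all), and the H3K4me1 list of KO at 1 h comes from the deepest library.

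Direct overlap with LSD1 sites was rare. LSD1n, read through its Flag tag at 0 h, was called at 77 doubly marked regions (3.33%, 2.63 to 4.14), with 0.855% of all H3K36me3 regions. Among regions that did not have all 8 targets, it was called at 25 of the 2259 doubly marked (1.11%, 0.717 to 1.63) and 15 of the 9137 others (0.164%). At 1 h the count was 84 (0.951% of all), or 29 without regions of all 8 targets (1.28%, against 0.197% of the others). Flag-LSD1c, the widely expressed form, was called at 91 at 0 h (1.09% of all) and 93 at 1 h (1.06% of all). Without regions of all 8 targets these were 36 and 41 (1.59% and 1.81%, against 0.296% and 0.252% of the others). The LSD1 antibody gave 128 (5.53%, with 1.82% of all) in wild type neurons at 0 h, 108 (4.67%, with 1.37% of all) at 1 h, 108 (4.67%, with 1.34% of all) in LSD1n WT at 0 h and 103 (4.45%, with 1.41% of all) in the KO library without a time. Without regions of all 8 targets the shares were 3.28%, 2.30%, 2.48% and 2.17% in that order, against 0.799%, 0.460%, 0.427% and 0.558% of the others. In each of these 8 lists at most 5.53% of doubly marked regions met a site. Both Flag forms and LSD1 are among the 8 targets, so leaving out regions of all 8 targets takes LSD1 sites away by definition.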

How the data were processed

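The series has 41 samples; the 27 with a list of called regions were read, and 10 GRO-seq plus 4 RNA-seq samples were not used here. Bowtie, HOMER and build mm9 are named, without tool versions, in the submitters' processing notes. Per the file headers, the authors stitched peaks of 500 bp at a minimum distance of 1250 bp into histone regions, centred regions on likely nucleosome-free positions, and called Pol II and LSD1 sites at 200 bp with 4-fold more tags than the local 10 kb. The false discovery rate was 0.001 and 1 tag counted per position. All deposited entries have a score of 1, so a region is only called or not called and carries no height; a region under the threshold in a shallower library is not called. The other deposited columns are start and end in bp of mm9, printed here from 1.

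Overlap (1 bp), covered length and edge-to-edge distance were computed with Python 3.11.15, numpy 2.4.6, pandas 2.3.3 and scipy 1.17.1 on chromosomes 1 to 19, and checked on simulated lists; matplotlib 3.10.9 drew the figures. Groups follow the labels. The doubly marked regions, the classes of width and distance and the rule for named regions were chosen with earlier results of these data known. That rule took the widest regions of each state, the H4K20me1 regions with most doubly marked regions, those on and those farthest from Pol II, and those at the limit of the overlap, without regions called with all 8 targets; the text gives some of them. The planned gene lists were not run, since no mm9 annotation was used here. Alternatives were the overlap rule, leaving out regions with all 8 targets, width, 1 region per H4K20me1 region, merging within 5 kb, weighting by width or list order, equal list lengths, each H4K20me1 library of WT at 1 h alone, and other Pol II lists and distances.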

Additional observations from a re-analysis of the deposited data

How the results depend on the processing

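None of the 77 alternative values turned a direction, but only the differences could do so, since a share is never negative. Of all these values, 36 moved by less than their counting interval or the SD of 2 libraries, and 41 moved by more. For H4K20me1 in WT at 1 h that SD was 45.6 around a mean of 49.2%, so wide that every alternative fell inside it. Of the 36, 9 come from the planned limit at the median width, which is also the shortest width and removes no region; keeping only wider regions, and the finer weightings, were added after the data were seen. The share of H3K36me3 regions with H4K20me1 was 14.8% with 50% of the region inside, 21.2% with 1 region per H4K20me1 region, 25% with regions within 5 kb merged and 28.2% for those wider than the shortest; the share wholly inside was 69.6%, 44.0%, 57.5% and 43.1% in that order. The difference in H3K36me3 calls in KO at 0 h was 7.13 points with 50% inside, 21.6 merged, 20.3 for wider regions, and 12.4, 11.4 and 10.4 weighted by 3 width classes, 5 width classes and list order. In WT at 1 h it was 17.8 with 50% inside, 26.8 merged, 19 with equal list lengths, and 13.2, 11.8 and 10.4 weighted. In KO at 1 h it was 7.40, 22.4 merged, 22.2 for wider regions, and 13.5, 12.6 and 11.7 weighted. The planned 5 width classes became 3, since 58.5% of regions are 501 bp. H4K20me1 in KO at 0 h was called at 90.6% with 1 region per H4K20me1 region, 94.9% merged, 93.9% for wider regions and 55.2% with equal list lengths; in KO at 1 h at 31.0% with 50% inside, 32.5%, 39.0%, 41.8% and 25.6%. In WT at 1 h it was 16.9% to 81.4% with 1 library left out. The Pol II difference was 29.8 points with 50% inside, 24.5, 23.8 and 23.4 weighted, 9.73 within 1 kb and 13.1 within 50 kb. Apart from what each rule removes, the cause of these moves was not tested. Under the 50% rule, regions with less overlap enter neither set. No paired analysis was possible because the labels give no replicate numbers and every group but 1 has 1 library. Lists hold no counts per region, so a region just under the threshold of 17 to 23 tags cannot be told from one without the mark.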
